A study of Mus musculus with 5 samples.

Results

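The genes described here are 161 well-expressed solute carrier (SLC) transporters of mouse colon spheroids, out of 334 SLC rows in a table of 32793 genes. They were chosen by symbol and by count. The symbol had to have the form Slc, a family number, the letter a and a member number. The row had to hold at least 50 counts in each of the 5 libraries. In all, 164 rows met this, and 3 of them (Slc20a1, Slc12a2 and Slc26a3) were left out by name, as was Slc9a3, which did not reach the minimum. Of the other SLC rows, 52 had 0 counts in every library, and 117 had some counts but fewer than 50 in at least 1 library. Because every library had to reach the minimum, a transporter present in 1 genotype only could not be a member. The members with the lowest minimum were Slc29a4 (57 counts) and Slc25a14 (58 counts), and the rows closest below it were Slc23a3 (47 counts) and Slc18a2 (41 counts).

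Solute carriers are membrane proteins that move nutrients, ions, vitamins, metals and metabolites across the cell surface or organelle membranes, mostly as facilitated carriers, exchangers or cotransporters driven by sodium, proton or chloride gradients. In the colon, mature surface cells take up short-chain fatty acids, electrolytes and sulfate, while dividing crypt cells rely on amino acid, nucleoside and folate carriers for growth. Some families work as partner pairs, such as the heteromeric amino acid transporters, in which the glycoprotein Slc3a2 carries a light chain of the Slc7 family. Others, the SLC25 carriers, sit for the most part in the inner mitochondrial membrane.

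The spheroids are 3-dimensional cultures of colon epithelium. The 2 libraries called NDD came from spheroids that carried the alleles Notch1DD and Notch2DD, whose products are dimerization-deficient Notch receptors, and the 3 wild-type libraries (WT) carried neither. NDD is the name in the genotype label, while the titles of these libraries read RA, which the labels do not explain. Both groups were of mixed strain background, C57Bl6 for the most part and FVB for the rest, and no treatment or time point is labelled. The labels do not say whether the cultures of a group came from separate mice, so p-values measure only the spread between these cultures. Bulk RNA is measured throughout, and a lower value from fewer cells of a type cannot be told apart from less RNA per cell.

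The NDD libraries held 22372029 and 22122748 counts and the WT libraries between 19192389 and 23064000, of which the members took 1.39% and 1.74% in NDD and 1.24% to 1.34% in WT. In all, 10 gene lists were read, 6 of them as markers of the cultures. The 10 epithelial markers summed to 10474 to 11883 CPM (the usual count unit scaled to library size, with TMM factors in every sum and gene value). Fibroblast markers summed to 4.8 to 27.1 CPM, immune markers to 2.27 to 8.49 CPM and endothelial markers to 1.84 to 7.54 CPM, with Lum, Thy1, Cd4, Cd8a, Kdr and Emcn among the markers at 0 counts in all libraries. NDD replicate 2 had the highest fibroblast sum (27.1 CPM, of which Pdgfrb made up 25.8 CPM) and the highest endothelial sum (7.54 CPM, of which Vwf made up 7.35 CPM). Proliferation genes summed to 4219.5 and 1809 CPM in NDD and 4632, 4165 and 4663 CPM in WT, so NDD replicate 2 lay below the rest. All 26 had a negative log2 fold change, with a median of -0.55 (-0.07 without NDD replicate 2), and in 9 (34.6%) both NDD libraries were below all WT libraries, against 16.2% of all genes tested. Colonocyte genes outside the SLC families summed to 6863 and 7169.9 CPM in NDD and 5175, 5504 and 4244 CPM in WT. There 19 of 20 had a positive log2 fold change, with a median of 0.86, and in 11 (55%) both NDD libraries were above all WT libraries, against 15.8% of all genes tested. WT replicate 3 was the lowest of the 5 libraries in 16 of the 20, as in Krt20, a surface keratin, which measured 60.02 and 131 CPM in NDD and 35, 35.3 and 4.93 CPM in WT. The median without WT replicate 3 was 0.54, and without WT replicate 1 it was 1.37. WT replicate 3 was also the lowest library in 58 members (36%), against 25.3% of all genes at the count minimum used for the members. Guca2a, the guanylin peptide of surface colonocytes, measured 153 and 153 CPM in NDD and 73.3, 39.1 and 18.7 CPM in WT. None of the 158 list genes tested passed edgeR's adjusted p, and 21 were higher and 5 lower at an unadjusted p under 0.05. DESeq2 called 5 of them, 4 higher in NDD and Mfsd2a lower, with adjusted p of 0.00955 for Guca2a, 6.72e-04 for Ceacam20, 0.0258 for Gpt2, 0.0214 for Pdgfrb and 0.00221 for Mfsd2a. Whether these shifts of colonocyte and proliferation genes had a part in the transporter values was not tested.

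No member passed edgeR's quasi-likelihood test at a Benjamini-Hochberg adjusted p under 0.05 over all 13501 genes tested, and the lowest adjusted p was 0.101 for Slc37a2. The same test called 12 of all genes (0.0889%). Before adjustment, 28 members had p under 0.05 and were higher in NDD, and 9 were lower (background 6.49% of all genes higher and 4.68% lower). Without WT replicate 3 these counts were 14 and 1, without WT replicate 1 they were 19 and 7, without WT replicate 2 they were 21 and 6, and without NDD replicate 1 they were 46 and 15. DESeq2 called 10 members higher and none lower (background 1.62% and 1.02%), with 34 members higher and 10 lower at an unadjusted p under 0.05. Limma-voom called no member, with 26 higher and 7 lower at an unadjusted p under 0.05. In 43 members (26.7%) both NDD libraries were above all 3 WT libraries, and in 17 (10.6%) both were below, while 101 overlapped. The background was 15.8% above and 16.2% below over all genes tested, and 15.2% above and 17.4% below over the 10655 genes that also held 50 counts in every library. The median log2 fold change of the members (NDD over WT) was 0.12, and that of all genes tested was -0.0047. The log2 fold change was above 0 in 102 members and below 0 in 59. With NDD replicate 2 left out the median of the members was -0.00054, with 57 members above all of WT and 41 below, in a fit where 28.1% of all genes were above and 25.5% below. Leaving out NDD replicate 1 gave a median of 0.24, with 91 above and 39 below (38% and 38.4% of all genes). Leaving out WT replicate 1 gave 28 below (23.6% of all genes).

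**Figure D1:**
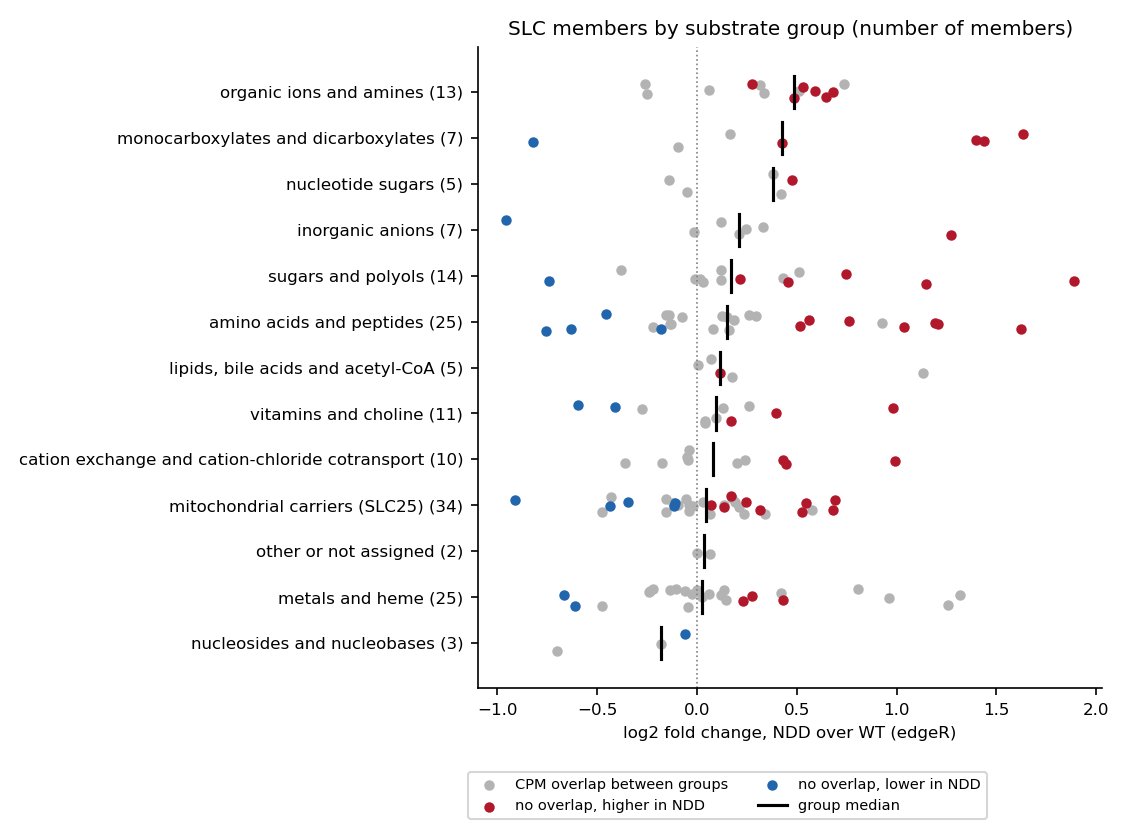
Log2 fold change (NDD over WT, edgeR) of the 161 members by substrate group, 1 point per gene, with red for the 43 genes whose NDD libraries both lie above all WT libraries, blue for the 17 that lie below, grey for overlapping genes and a black bar for the group median. Medians run from -0.18 for nucleosides to 0.48 for organic ions and amines, and single genes from -0.96 (Slc4a11) to 1.89 (Slc37a2).

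The 2 NDD libraries were also read singly. Set against the mean of WT, the median member was at -0.01 on the log2 scale in NDD replicate 1 and at 0.25 in NDD replicate 2. In 59 members (36.6%) both libraries were above the WT mean and in 37 (23%) both were below, against 29.1% and 35.6% of all genes at the count minimum. In 47 (29.2%) NDD replicate 2 alone was above, and in 18 (11.2%) NDD replicate 1 alone, against 17.3% and 18% of all genes at the count minimum. The share with both libraries on 1 side of the WT mean was 59.6% in the members and 64.8% in all those genes. NDD replicate 2 exceeded NDD replicate 1 more than 2-fold in 22 members, and the reverse held in 2. A difference of over 2-fold between the NDD libraries was seen in 14.9% of members and in 7.71% of all genes at the count minimum. Without NDD replicate 1, the remaining NDD library being assumed to vary like WT, edgeR called 18 members, 17 higher and 1 lower, in a fit that called 1207 of 14007 genes. Without NDD replicate 2 it called none of the members and 12 of 13856 genes, 14 members were higher and 14 lower at an unadjusted p under 0.05, and 109 of 161 kept their direction.

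Several group medians turned on the same library. Once NDD replicate 2 was left out, the group median was -0.10 for amino acid and peptide carriers, -0.09 for metals, -0.07 for vitamins and choline, 0.03 for inorganic anions, 0.08 for organic ions and amines, 0.09 for sugars and -0.03 for nucleosides. With NDD replicate 1 left out instead, these came to 0.42, 0.12, 0.25, 0.34, 0.66, 0.39 and -0.62 in the same order. Monocarboxylate and dicarboxylate carriers stood at 0.29 without replicate 2 and 1.07 without replicate 1, nucleotide sugar carriers at 0.21 and 0.13, and mitochondrial carriers at 0.03 and 0.05. Some medians also moved with a WT library. Without WT replicate 3 mitochondrial carriers stood at 0.0094 and nucleotide sugar carriers at 0.21. Vitamins and choline stood at 0.03 without WT replicate 1, and monocarboxylates and dicarboxylates at 0.83 without WT replicate 2.

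**Figure D2:**
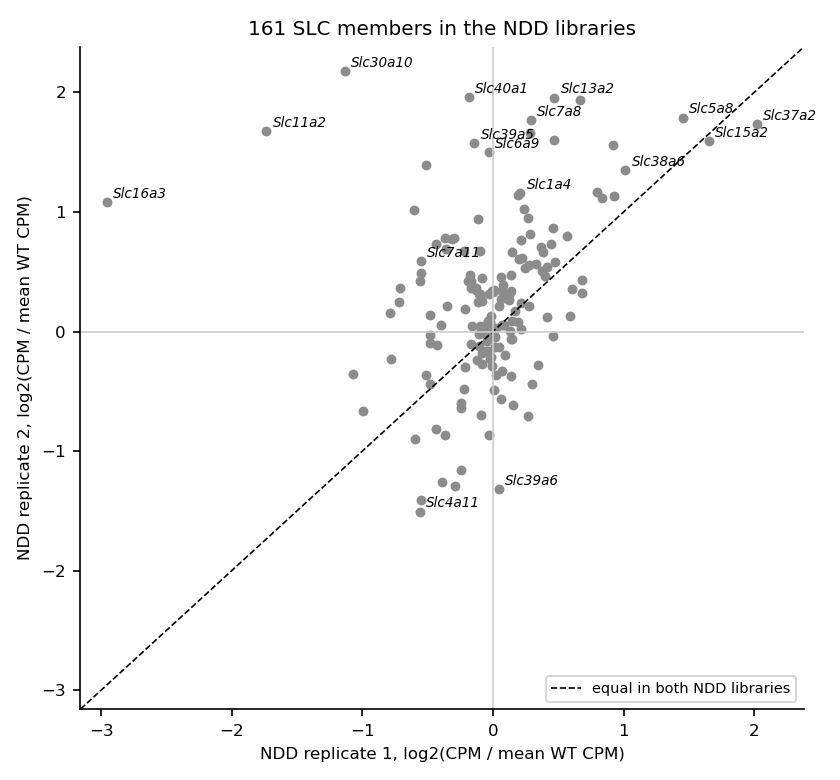
Each of the 161 members as log2 of its CPM over the mean WT CPM in NDD replicate 1 (x axis) and NDD replicate 2 (y axis), with a dashed line where both libraries are equal. Slc37a2, Slc5a8, Slc15a2 and Slc38a6 lie near the line at upper right, while Slc16a3, Slc11a2 and Slc30a10 are below the WT mean in replicate 1 and above it in replicate 2.

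Sequences are shown for 2 iron carriers and for 3 members whose promoters hold searched letters. Slc40a1 (ferroportin) and Slc11a2 (DMT1) are iron carriers whose transcripts are known to carry an iron-responsive element, a hairpin bound by iron regulatory proteins. Transcripts of GENCODE M21 (mm10) were searched for the letter C, 5 bases, the loop CAGTG with any base but G after it, and 5 bases that pair with the first 5, G-T pairs included. In Slc40a1 it lies in the 5′ UTR, at chr1:45925471-45925487 on the minus strand. In Slc11a2 it lies in the 3′ UTR of 1 of 2 full-length coding transcripts, at chr15:100395158-100395175 on the minus strand, with 1 unpaired base. Loop letters are in capitals:
Slc40a1 hairpin: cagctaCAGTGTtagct
Slc11a2 hairpin: cagagcCAGTGTgtttct
Such a match was found with no unpaired base in 0.6% of 55341 annotated genes and in 3 members, and with or without one in 1.83% of genes and in 10 members (6.21%). The annotated genes include noncoding genes and pseudogenes, and the length of sequence searched per gene was not matched. The shares are therefore of unlike sets, and no excess in the members can be read from them. A match is a description of letters only.

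Promoters of 300 bases, from 250 before to 50 after the start, were taken from RefSeq (GRCm38.p6) and were matched for 117 members. They were searched on both strands for the RBPJ motif TGGGAA, for the composite C/EBP-ATF site TGATGNAA that ATF4 is known to bind, and for the metal response element TGCACNC or TGCGCNC. RBPJ letters were in 21 member promoters (17.9%) and 25.5% of all 27025 promoters. ATF4 letters were in 4 (3.42%, namely Slc7a11, Slc50a1, Slc1a4 and Slc7a7) and 4.06% of all. Metal response letters were in 39 (33.3%) and 25.6% of all, and 3 or more copies in 3 members and 2% of all. The promoters of Slc37a2 and Slc38a6 held none of these letters and are not shown. No match says only that the letters are not in this window. Slc7a11 (chr3:50443564-50443863 on the minus strand) and Slc1a4 (chr11:20332664-20332963 on the minus strand) are shown as amino acid carriers that hold the ATF4 letters. A further amino acid carrier, Slc7a7, holds 2 matches and is not shown. Against the mean of WT, Slc7a7 was at -0.09 and -0.18 on the log2 scale in NDD replicates 1 and 2. Slc7a11 was at -0.55 and 0.59, and Slc1a4 at 0.21 and 1.16. Whether the letters had a part in these values was not tested. Slc30a10 (chr1:185454598-185454897 on the plus strand), the manganese exporter, is shown with its 3 metal response matches, of which a pair on opposite strands overlap. All matched letters are in capitals, and TGGGAA is the RBPJ motif:
Slc7a11: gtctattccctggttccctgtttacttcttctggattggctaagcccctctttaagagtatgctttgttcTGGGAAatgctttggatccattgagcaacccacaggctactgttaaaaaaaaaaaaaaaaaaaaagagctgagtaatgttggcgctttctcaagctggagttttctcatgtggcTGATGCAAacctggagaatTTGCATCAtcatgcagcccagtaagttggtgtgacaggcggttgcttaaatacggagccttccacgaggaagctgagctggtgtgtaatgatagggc
Slc1a4: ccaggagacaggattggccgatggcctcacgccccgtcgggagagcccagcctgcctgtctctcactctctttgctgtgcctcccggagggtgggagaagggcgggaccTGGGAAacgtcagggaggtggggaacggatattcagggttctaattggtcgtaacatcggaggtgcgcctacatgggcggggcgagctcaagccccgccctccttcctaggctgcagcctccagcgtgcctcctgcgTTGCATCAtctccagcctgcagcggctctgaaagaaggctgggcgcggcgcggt
Slc30a10: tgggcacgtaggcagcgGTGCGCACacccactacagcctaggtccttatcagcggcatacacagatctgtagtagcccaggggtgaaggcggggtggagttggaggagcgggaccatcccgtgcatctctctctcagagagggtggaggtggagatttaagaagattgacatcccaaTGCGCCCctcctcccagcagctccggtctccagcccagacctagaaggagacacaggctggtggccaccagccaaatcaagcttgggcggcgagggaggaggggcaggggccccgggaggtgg
In Slc7a11 the ATF4 letters occur 2 times, the first 66 bases before the start, and in Slc1a4 once, 4 bases before the start.

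Amino acid and peptide carriers formed a group of 25 with a median log2 fold change of 0.15. In 7 both NDD libraries were above all WT libraries (28% against 15.8% of all genes) and in 4 below (16% against 16.2%). Slc38a6, a member of the sodium-coupled neutral amino acid transporter family, was the most abundant carrier of the group per transcript length. It measured 1276 and 1612 CPM in NDD and 539, 691 and 665 CPM in WT. Every NDD library was thus above every WT library. On the TPM scale the means were 606 in NDD and 271 in WT, behind only the mitochondrial carriers Slc25a5 and Slc25a3 among the members. The log2 fold change was 1.19 ± 0.17 (SE), with an adjusted p of 0.104 in edgeR and 1.03e-06 in DESeq2, and it ranged from 1.03 to 1.35 when any 1 library was left out. A small annotated gene, Gm43107, shares all of its 31-base words with Slc38a6, where they are 2.9% of the total.

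Slc6a14, the broad sodium- and chloride-coupled carrier of neutral and cationic amino acids, measured 332 and 385 CPM in NDD and 212, 153 and 159 CPM in WT. The groups were apart, with a log2 fold change of 1.04 ± 0.18 and adjusted p of 0.169 in edgeR and 1.55e-04 in DESeq2. Slc15a2, the proton-coupled peptide carrier PEPT2, was low in level. It measured 13.2 and 12.6 CPM in NDD and 5.28, 4.61 and 2.66 CPM in WT, again without overlap. Its log2 fold change was 1.63 ± 0.32 (adjusted p 0.211 in edgeR and 8.29e-04 in DESeq2). Slc1a1, which carries glutamate, measured 35.8 and 30.2 CPM in NDD and 20.03, 17.4 and 29.6 CPM in WT, so that NDD replicate 2 and WT replicate 3 nearly met. Exons of the opposite-strand gene 4430402I18Rik cover 31.9% of Slc1a1, and the strand setting of the counting is not stated. The proton-coupled amino acid carrier Slc36a1 measured 49 and 71.8 CPM in NDD and 38, 47.6 and 41 CPM in WT, also without overlap.

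The heteromeric transporters were followed by subunit. The heavy chain Slc3a2 measured 144 and 268 CPM in NDD and 148, 184 and 171 CPM in WT, so that NDD held both the highest and the lowest library. Its light chain Slc7a5 (LAT1, which imports leucine and other large neutral amino acids) measured 103 and 202 CPM in NDD and 131, 185 and 195 CPM in WT. Another light chain, Slc7a11 (the cystine-glutamate exchanger), measured 47.8 and 105 CPM in NDD and 63.9, 84.8 and 62 CPM in WT. For these 3 genes NDD replicate 1 was the lowest and NDD replicate 2 the highest of the 5 libraries. Their log2 fold changes were 0.30 ± 0.27, -0.16 ± 0.32 and 0.13 ± 0.34, each less than 2 SE from 0, and without NDD replicate 2 they were -0.20, -0.71 and -0.54. Slc7a8 (LAT2) measured 15.8 and 43.9 CPM in NDD and 14, 15.1 and 9.69 CPM in WT. Here NDD replicate 1 lay just above WT and replicate 2 well above it, and the log2 fold change of 1.21 was 0.30 without replicate 2. Slc7a7, the y+LAT1 chain that exports cationic amino acids, measured 80.1 and 75.3 CPM in NDD and 86.3, 78.9 and 90.1 CPM in WT and overlapped. Slc7a6, the y+LAT2 chain, measured 32.2 and 17.7 CPM in NDD and 36.8, 33.6 and 56.2 CPM in WT. Its NDD libraries were both below WT, with a log2 fold change of -0.76 ± 0.34 that moved to -0.38 when NDD replicate 2 was left out and to -1.26 when NDD replicate 1 was.

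A further set of carriers stood highest in NDD replicate 2. Slc1a4, an exchanger of alanine, serine and cysteine, measured 99.1 and 192 CPM in NDD and 97.3, 98 and 61.9 CPM in WT. The glutamine exchanger Slc1a5 measured 174 and 360.5 CPM in NDD and 219, 217 and 234 CPM in WT, and its log2 fold change of 0.26 was -0.34 without NDD replicate 2. For the glycine carrier Slc6a9 the values were 46.7 and 135 CPM in NDD and 36.4, 63.3 and 43.7 CPM in WT. NDD replicate 2 was the highest library in 15 of the 25 carriers (60%), in 51.6% of all members and in 32.5% of all genes at the count minimum. NDD replicate 1 was within or below the WT range for Slc6a9 and Slc1a5 and just above it for Slc1a4. Genes of the amino acid response that are not carriers (targets of ATF4 and its partners) summed to 1609 and 4202 CPM in NDD and 1601, 2340.4 and 1761 CPM in WT. All 25 had a log2 fold change above 0, with a median of 0.69 (-0.07 without NDD replicate 2), and in 4 (16%) both NDD libraries were above all WT libraries, a share near the 15.8% of all genes tested. Among them Gpt2, alanine aminotransferase, measured 31.1 and 104 CPM in NDD and 15.7, 29.1 and 15.2 CPM in WT. Nupr1, a stress-response regulator, measured 121 and 285 CPM in NDD and 93.6, 114 and 74.1 CPM in WT. NDD replicate 2 was the highest library in this sum too, and the part of that response in the carrier values was not tested.

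At the low end, Slc16a10, which carries aromatic amino acids, measured 6.95 and 3.7 CPM in NDD and 7.4, 7.08 and 10.3 CPM in WT. The lysosomal peptide and histidine carrier Slc15a4 measured 20.9 and 21.5 CPM in NDD and 25, 28.9 and 33.5 CPM in WT, and its log2 fold change of -0.46 ± 0.17 stayed between -0.56 and -0.35 without any 1 library. Slc38a10 was lower in NDD by less, with 109.5 and 101 CPM in NDD and 113, 116 and 129 CPM in WT. None of the 3 had an adjusted p under 0.05 in edgeR or DESeq2.

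**Figure D3:**
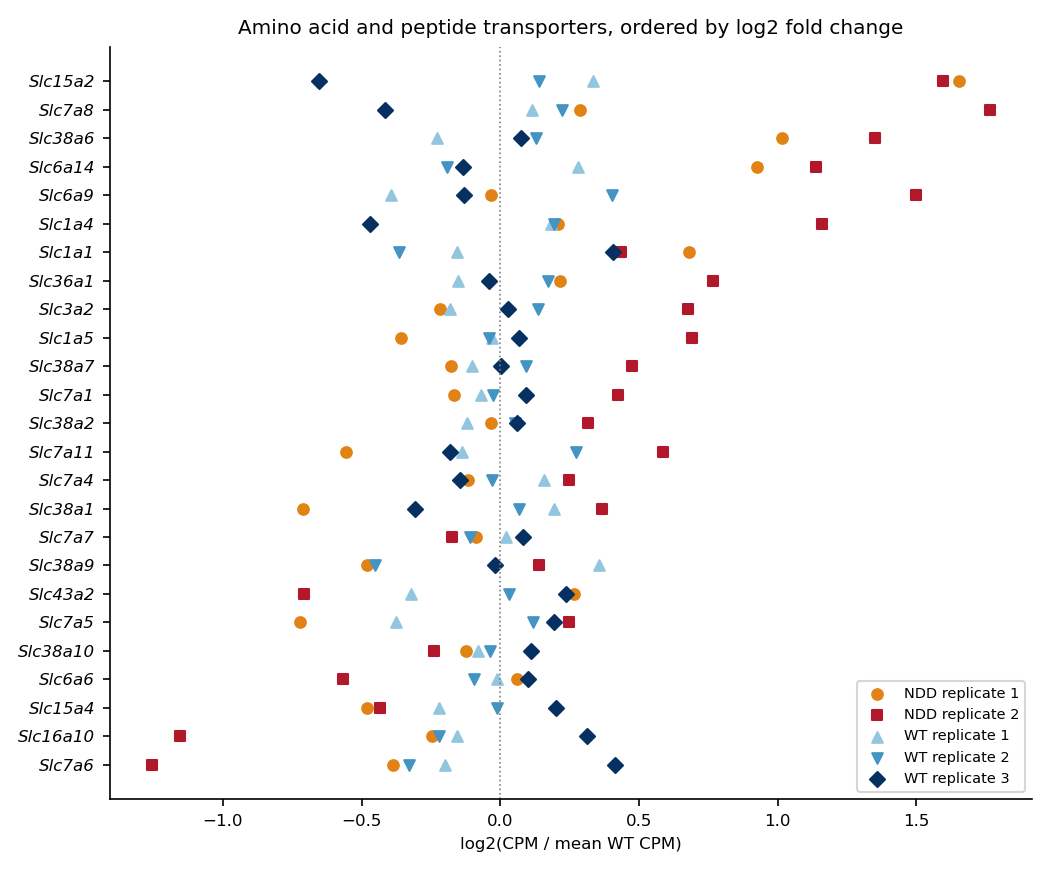
The 25 amino acid and peptide carriers in each library, as log2 of CPM over the mean WT CPM, with orange circles and red squares for NDD replicates 1 and 2 and blue symbols for WT. In Slc15a2, Slc38a6 and Slc6a14 both NDD symbols stand to the right of WT, while in Slc7a5, Slc7a11, Slc1a5 and Slc38a1 replicate 1 stands to the left and replicate 2 to the right.

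Sugar and polyol carriers numbered 14, with a median log2 fold change of 0.17, 5 above WT without overlap and 1 below (35.7% and 7.14%, against 15.8% and 16.2% of all genes tested). Slc37a2, an exchanger of glucose 6-phosphate for phosphate in the endoplasmic reticulum, had the highest log2 fold change of all members. It measured 76.2 and 62.6 CPM in NDD and 25, 17.1 and 14.2 CPM in WT. The lower NDD library was more than 2-fold above the highest WT library. The log2 fold change was 1.89 ± 0.25 and lay between 1.72 and 2.15 without any 1 library. Its adjusted p was 0.101 in edgeR and 2.38e-08 in DESeq2. The other Slc37 members overlapped: Slc37a1 measured 119.6 and 249 CPM in NDD and 131, 149 and 108 CPM in WT. Slc37a3 and Slc37a4 both had a log2 fold change of 0.12. Without NDD replicate 1 these were 0.01 and 0.36, and without NDD replicate 2 they were 0.23 and -0.16.

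Slc2a13, the proton-coupled myo-inositol carrier, measured 28.9 and 63.6 CPM in NDD and 25.4, 24.2 and 13.1 CPM in WT. The sodium-coupled myo-inositol carrier Slc5a3 measured 31.4 and 60.8 CPM in NDD and 30.5, 28.9 and 23 CPM in WT. In both genes NDD replicate 1 lay just above the highest WT library and replicate 2 about 2-fold or more above it. Slc5a1 (SGLT1, sodium-glucose cotransport) measured 106 and 125 CPM in NDD and 92.2, 85.7 and 74.7 CPM in WT, for a log2 fold change of 0.45 ± 0.15. The 2 most abundant sugar carriers per length were Slc2a1 and Slc50a1. Slc2a1 (GLUT1, the general glucose carrier) measured 151 and 299 CPM in NDD and 199, 269 and 200.3 CPM in WT, with NDD holding the highest and the lowest library and a log2 fold change of 0.01 ± 0.31. Slc50a1, the SWEET family member, measured 58.5 and 66.4 CPM in NDD and 53, 53.4 and 54.9 CPM in WT. Slc5a9 (SGLT4, a sodium-coupled carrier of mannose) was the sugar carrier below WT, with 11.7 and 9.46 CPM in NDD and 19.6, 12.5 and 20.9 CPM in WT.

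Monocarboxylate and dicarboxylate carriers numbered 7 and included several of the largest differences, with a median log2 fold change of 0.42, 4 above WT without overlap and 1 below (57.1% and 14.3%, against 15.8% and 16.2% of all genes tested). Slc5a8 (SMCT1), the apical sodium-coupled carrier of butyrate and lactate in colonocytes, measured 113 and 142 CPM in NDD and 57, 39.9 and 26.3 CPM in WT. Both NDD libraries were about 2-fold or more above the highest WT library. Its log2 fold change was 1.63 ± 0.31, from 1.39 to 1.94 without any 1 library, with an adjusted p of 0.207 in edgeR and 1.55e-04 in DESeq2. Slc16a5, a member of the proton-linked monocarboxylate family, measured 17.7 and 42.6 CPM in NDD and 13.4, 12.8 and 7.12 CPM in WT. The sodium-dicarboxylate cotransporter Slc13a2, which takes up citrate and succinate, measured 16 and 44.8 CPM in NDD and 10.7, 13.9 and 10.04 CPM in WT. In both, NDD replicate 2 stood far above replicate 1, and without it their log2 fold changes of 1.44 and 1.40 were 0.68 and 0.48. Exons of the opposite-strand gene Slc13a2os overlap 26.2% of Slc13a2, and reads of the 2 cannot be told apart if the counting did not use strand.

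The most abundant carrier of this group was Slc16a1 (MCT1, proton-linked lactate and butyrate transport), at 286 and 347 CPM in NDD and 209.6, 267 and 231 CPM in WT, again with no overlap (log2 fold change 0.42 ± 0.16). Slc16a3 (MCT4, the lactate exporter of glycolytic cells) had the widest spread of all members between the NDD libraries. It measured 9.05 and 149 CPM in NDD and 62.5, 121 and 27.3 CPM in WT. WT lay between the NDD libraries, and the log2 fold change of 0.17 ± 1.07 was 1.07 with NDD replicate 1 left out and -2.94 with NDD replicate 2 left out. Slc16a6 (MCT7), known as a ketone body carrier, was below WT, with 10.1 and 12.6 CPM in NDD and 16.4, 19.997 and 23.8 CPM in WT. For Slc16a6 the log2 fold change was -0.82 ± 0.22 (adjusted p 0.365 in edgeR and 0.0758 in DESeq2), and 21.5% of its exon bases overlap Amz2 on the other strand.

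**Figure D4:**
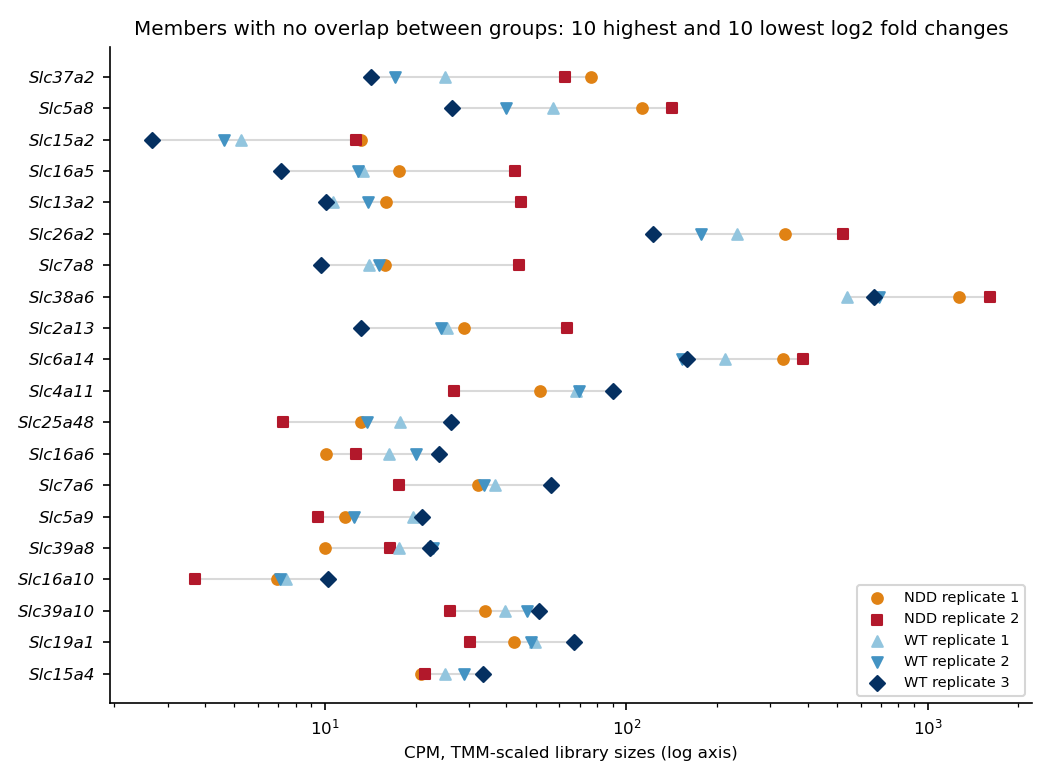
CPM in each library (log axis) of the 10 members with the highest and the 10 with the lowest log2 fold change among the 60 members whose groups do not overlap. Symbols are orange circles and red squares for NDD and blue for WT, and a grey line spans each gene's range. Slc37a2, Slc15a2 and Slc38a6 show the NDD libraries close together and apart from WT, whereas in Slc16a5, Slc13a2, Slc7a8 and Slc2a13 NDD replicate 1 lies next to the WT libraries.

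Metal and heme carriers numbered 25 and had a median log2 fold change of 0.02, 3 above WT without overlap and 2 below (12% and 8%, against 15.8% and 16.2% of all genes tested). Iron carriers spread widely. Slc11a2 (DMT1), the proton-coupled importer of ferrous iron and the most abundant metal carrier, measured 77.5 and 825 CPM in NDD and 246, 417 and 111 CPM in WT. NDD replicate 2 was the highest and NDD replicate 1 the lowest library, more than 10-fold apart, and WT itself ranged nearly 4-fold. The log2 fold change of 0.81 ± 0.93 was smaller than its SE, and it was 1.67 with NDD replicate 1 left out and -1.72 with NDD replicate 2 left out. Slc40a1 (ferroportin), the only known cellular iron exporter, measured 118 and 521 CPM in NDD and 144, 169.5 and 87.8 CPM in WT. There NDD replicate 2 was about 3-fold above the highest WT library and NDD replicate 1 lay within WT. The log2 fold change of 1.26 ± 0.59 was -0.17 with NDD replicate 2 left out. Summed over the group, metal carriers came to 855 and 1809 TPM in NDD and 1025, 1237 and 988 TPM in WT.

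The effective transcript length of Slc11a2 also varied between libraries. The ratio of count to TPM follows the effective length of a gene's transcripts. Relative to the mean of the 5 libraries it was 106% and 80.0% in NDD and 99.6%, 97.2% and 118% in WT, an SD of 13.7%. The shortest effective length was in NDD replicate 2, where Slc11a2 was most abundant, and the longest in WT replicate 3. Among 99 members with at least 500 counts in every library only Slc11a2 and the mitochondrial NAD carrier Slc25a51 (SD 6.63%) exceeded an SD of 5%, as did 338 of 6212 genes. The annotation holds 2 full-length coding transcripts of Slc11a2, one of 4415 bases with the hairpin and one of 3025 bases without a match. The tables give no value per transcript.

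Manganese and zinc carriers followed. Slc30a10, the manganese exporter, measured 12.5 and 125 CPM in NDD and 31.6, 43.5 and 7.55 CPM in WT. NDD replicate 2 exceeded NDD replicate 1 about 10-fold, and WT spread nearly 6-fold, and the log2 fold change of 1.32 ± 0.996 was 2.17 with NDD replicate 1 left out and -1.12 with NDD replicate 2 left out. Slc39a5 and Slc39a14, zinc and manganese importers of the ZIP family, were next. Slc39a5 measured 23.3 and 76.9 CPM in NDD and 34.2, 30.6 and 12.6 CPM in WT. Slc39a14 measured 24.6 and 75.8 CPM in NDD and 35.8, 44.5 and 32.1 CPM in WT. Both were highest in NDD replicate 2. Slc39a9 (ZIP9) was above WT, with 109 and 143 CPM in NDD and 100.2, 95.7 and 84.8 CPM in WT, as were the zinc exporters Slc30a1 (35.8 and 29.2 CPM in NDD and 27.8, 26.6 and 26.1 CPM in WT) and Slc30a4. On the other side, Slc39a8 (ZIP8) measured 9.97 and 16.4 CPM in NDD and 17.7, 22.9 and 22.3 CPM in WT. Slc39a10 (ZIP10, a zinc importer) measured 33.9 and 26.1 CPM in NDD and 39.6, 46.7 and 51.2 CPM in WT. Their log2 fold changes were -0.67 ± 0.26 and -0.61 ± 0.19, with adjusted p of 0.437 and 0.399 in edgeR. That of Slc39a8 was -0.36 with NDD replicate 1 left out and -1.06 with NDD replicate 2 left out. Slc39a4 (ZIP4), the apical zinc importer of the gut and the other leading metal carrier by TPM, measured 209 and 286 CPM in NDD and 245, 303 and 326 CPM in WT. The copper importer Slc31a1 measured 135 and 206 CPM in NDD and 131, 179 and 153 CPM in WT, and its groups overlapped. The heme carrier Slc48a1 overlapped as well, with 51.6 and 47.9 CPM in NDD and 41.1, 49.1 and 45.6 CPM in WT. Genes of metal handling that are not SLCs (24 tested, among them metallothioneins, ferritins and transferrin receptors) had a median log2 fold change of 0.08 (-0.04 without NDD replicate 2), 13 above 0 and 11 below, and summed to 5886 and 5742 CPM in NDD and 5215, 5669 and 5244 CPM in WT.

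**Figure D5:**
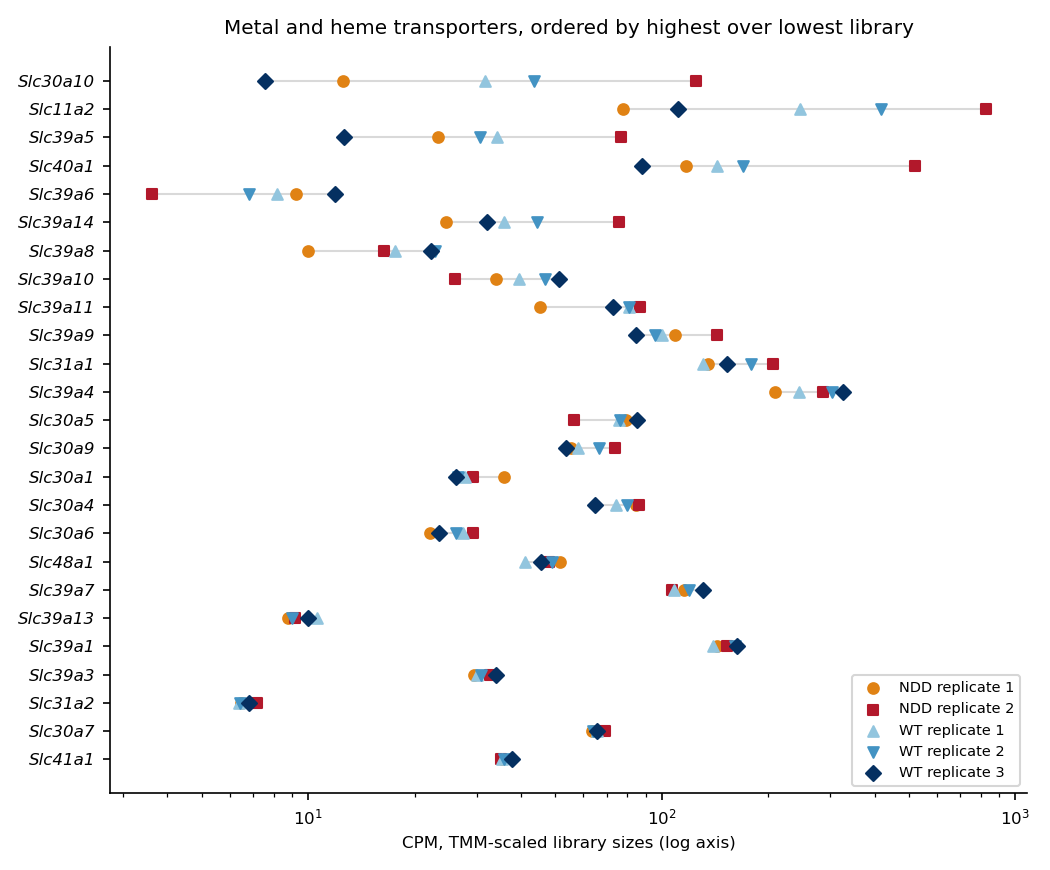
CPM (log axis) of the 25 metal and heme carriers in each library, ordered by the ratio of the highest to the lowest library, with orange circles and red squares for NDD, blue symbols for WT and a grey line over the range. Slc30a10, Slc11a2, Slc39a5 and Slc40a1 have the widest ranges, each with NDD replicate 2 at the top, while the carriers at the bottom, such as Slc41a1 and Slc30a7, differ little between any libraries.

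The order of the libraries was shared by carriers of unlike substrates. This was noted after the values were seen. From high to low the order NDD replicate 2, WT replicate 2, WT replicate 1, WT replicate 3, NDD replicate 1 held in Slc11a2, Slc16a3, Slc7a11, Slc39a14, Slc39a11, Slc23a2, Slc22a21 and Slc29a4. These are 8 members (4.97%), against 1.45% of all genes at the count minimum. NDD replicate 2 was the highest and NDD replicate 1 the lowest library in 20 members (12.4%, against 5.26%). The reverse held in 7 members (4.35%, against 6.11%).

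Inorganic anion carriers numbered 7, with a median log2 fold change of 0.21 and 1 gene clear of WT on either side (14.3% each way, near the 15.8% above and 16.2% below of all genes tested). Slc26a2, the sulfate exchanger that supplies sulfation of mucins and proteoglycans, measured 336 and 525 CPM in NDD and 234, 178 and 123 CPM in WT. Both NDD libraries were above WT, with a log2 fold change of 1.27 ± 0.31 and adjusted p of 0.296 in edgeR and 0.00579 in DESeq2. Slc4a11, a member of the bicarbonate transporter family, had the lowest log2 fold change of all members. It measured 51.7 and 26.8 CPM in NDD and 68.1, 69.7 and 90.6 CPM in WT, which gave -0.96 ± 0.30 (adjusted p 0.413 in edgeR and 0.0848 in DESeq2) and -1.51 and -0.55 with NDD replicates 1 and 2 left out. The chloride-bicarbonate exchanger Slc4a2 measured 164 and 198 CPM in NDD and 176, 150.2 and 142 CPM in WT. For the sodium-bicarbonate cotransporter Slc4a7 the values were 189 and 254 CPM in NDD and 193, 214 and 205 CPM in WT, and in both NDD replicate 2 was highest. The phosphate carrier Slc20a2 had a log2 fold change of -0.02 ± 0.16.

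The SLC9 exchangers and the SLC12 cation-chloride cotransporter family made up a group of 10 with a median log2 fold change of 0.08. The median was 0.23 without NDD replicate 1 and likewise without WT replicate 1. It was 0.12 without NDD replicate 2, 0.07 without WT replicate 2 and 0.05 without WT replicate 3. Above WT without overlap were 3 genes (30%, against 15.8% of all genes tested), and none lay below (against 16.2%). Slc9a2 (NHE2), an apical exchanger of colonocytes, measured 145 and 187 CPM in NDD and 117, 80.9 and 51.9 CPM in WT, with no overlap, for a log2 fold change of 0.99 ± 0.33 (DESeq2 adjusted p 0.103). Slc12a7, a potassium-chloride cotransporter, measured 103 and 113 CPM in NDD and 95.4, 76.6 and 66.3 CPM in WT, also without overlap, for a log2 fold change of 0.44 ± 0.18.

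Nucleoside carriers were few. Of 3 members none lay above WT without overlap, against 15.8% of all genes tested. Below WT lay 1 (33.3%, against 16.2%), Slc29a3, by a narrow margin. Slc29a1 (ENT1), the main equilibrative nucleoside importer, measured 63 and 37.1 CPM in NDD and 57.4, 51.3 and 61.7 CPM in WT. Slc29a2 (ENT2) measured 10.4 and 5.2 CPM in NDD and 13.9, 9.49 and 14.9 CPM in WT. In both NDD replicate 2 was the lowest of the 5 libraries, as it was for the summed proliferation genes. It was also the lowest in 39.4% of all genes at the count minimum. Slc29a3, the lysosomal ENT3, measured 25.1 and 24.6 CPM in NDD and 25.2, 25.3 and 27.3 CPM in WT. The median log2 fold change of the 3 was -0.18.

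Vitamin and choline carriers numbered 11, with a median log2 fold change of 0.10, 3 above WT without overlap and 2 below (27.3% and 18.2%, against 15.8% and 16.2% of all genes tested). Slc5a6 (SMVT), the sodium-coupled carrier of biotin and pantothenate, measured 60.6 and 73.7 CPM in NDD and 36.2, 34.9 and 31 CPM in WT. The groups were well apart, with little spread in either, and the log2 fold change was 0.98 ± 0.15 (adjusted p 0.121 in edgeR and 3.36e-05 in DESeq2). Slc44a4, known as the colonic carrier of thiamine pyrophosphate, was the most abundant by TPM and measured 319.7 and 389.97 CPM in NDD and 278, 277 and 256 CPM in WT, without overlap. The choline carrier Slc44a1 measured 203 and 236 CPM in NDD and 190.2, 201 and 194 CPM in WT. Below WT was the reduced folate carrier Slc19a1, at 42.5 and 30.2 CPM in NDD and 49.6, 48.3 and 67 CPM in WT. The thiamine carrier Slc19a2 was also below, at 25 and 19.5 CPM in NDD and 27.3, 28.1 and 33.4 CPM in WT. For Slc19a1 the log2 fold change was -0.60 ± 0.23, with -0.36 without NDD replicate 2. The proton-coupled folate carrier Slc46a1 overlapped and had 0.04 ± 0.15.

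Organic ion and amine carriers (13 members) had a median log2 fold change of 0.48. Above WT without overlap were 6 (46.2% against 15.8% of all genes tested) and below it none (against 16.2%). Without NDD replicate 1 the median was 0.66, and without NDD replicate 2 it was 0.08. WT replicate 3 was the lowest of the 5 libraries in 9 of the 13, and without it the median was 0.35. The highest group median over all libraries, it lay below that of the monocarboxylate and dicarboxylate carriers when any 1 library other than WT replicate 1 was left out. Slc6a8, the creatine carrier, measured 134 and 164 CPM in NDD and 107, 91.3 and 97.6 CPM in WT, for a log2 fold change of 0.59 ± 0.14 (adjusted p 0.293 in edgeR and 0.0362 in DESeq2). Among members of the organic ion family, Slc22a18 measured 60.8 and 80.4 CPM in NDD and 51, 49.2 and 32 CPM in WT. Its relative Slc22a23, likewise without overlap, measured 106 and 170.4 CPM in NDD and 92.9, 97.4 and 74.6 CPM in WT. The lysosomal sialic acid exporter Slc17a5 and the vesicular nucleotide carrier Slc17a9 had log2 fold changes of 0.53 ± 0.18 and 0.48 ± 0.18, and the carnitine carrier Slc22a5 0.27 ± 0.17 (0.08 without NDD replicate 2 and 0.45 without NDD replicate 1). Slc22a5 shares 35.8% of its 31-base words with Slc22a21, so reads between these members may be split.

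Of the 5 nucleotide sugar carriers of the Golgi, 1 lay above WT without overlap (20%, near the 15.8% of all genes tested). None lay below (against 16.2%). The 1 was Slc35a3, which supplies UDP-N-acetylglucosamine and measured 158 and 172 CPM in NDD and 126, 119 and 110.5 CPM in WT. Its log2 fold change was 0.48 ± 0.12, with adjusted p of 0.317 in edgeR and 0.0439 in DESeq2. The CMP-sialic acid carrier Slc35a1 measured 130.4 and 94.8 CPM in NDD and 104, 90.7 and 64 CPM in WT. In the UDP-galactose carrier Slc35a2 the values were 97.4 and 129.8 CPM in NDD and 81.4, 100.1 and 73.5 CPM in WT. Both overlapped. Slc35a4, the most abundant of the 5 by TPM, measured 201 and 165 CPM in NDD and 185, 201 and 219 CPM in WT. The group median was 0.38.

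Carriers of the SLC25 family, grouped as mitochondrial, were the largest group (34 members). Their median log2 fold change was 0.05 (0.0094 without WT replicate 3). In all, 9 lay above WT and 5 below (26.5% and 14.7%, against 15.8% and 16.2% of all genes tested). Slc25a5, the ADP/ATP translocase, and Slc25a3, the phosphate carrier, were the most abundant members per length, with mean TPM of 1265 and 813 in NDD and 1177 and 865 in WT. Slc25a3 measured 711 and 706 CPM in NDD and 717, 709.9 and 762 CPM in WT, so that all libraries lay within 1.1-fold. Slc25a5 measured 821 and 924 CPM in NDD and 794, 820.3 and 772 CPM in WT, a small difference without overlap, and shares 57.9% of the words of the annotated gene Gm5560. The other ADP/ATP translocase, Slc25a4, measured 29.5 and 43.2 CPM in NDD and 38.1, 54.6 and 58.9 CPM in WT. Slc25a36, a pyrimidine nucleotide carrier, measured 28.8 and 49.5 CPM in NDD and 24.6, 25 and 23.6 CPM in WT. Slc25a39, a glutathione carrier, measured 369 and 463 CPM in NDD and 336, 356 and 310.2 CPM in WT. In both the groups were apart. Slc25a20, the carnitine-acylcarnitine carrier of fatty acid oxidation, measured 66.9 and 96.7 CPM in NDD and 56.3, 68.1 and 40.3 CPM in WT and overlapped. Below WT, Slc25a48 measured 13.2 and 7.26 CPM in NDD and 17.7, 13.8 and 26.2 CPM in WT. The peroxisomal carrier Slc25a17, also below, measured 46.3 and 51.5 CPM in NDD and 62.7, 64.6 and 71 CPM in WT. NDD replicate 2 exceeded replicate 1 more than 2-fold in 1 of the 34 members (2.94%), against 4.15% of all genes at the count minimum. The count was 5 of 25 in both the metal and the amino acid carriers, the reverse held in 1 metal carrier, Slc39a6, and the difference between groups was not tested.

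Of 5 carriers of lipids, bile acids and acetyl-CoA, 1 lay above WT without overlap (20%, against 15.8% of all genes tested). Slc27a4 (FATP4, fatty acid uptake) and Slc33a1 (the acetyl-CoA carrier of the endoplasmic reticulum) were the most abundant. Slc27a4 measured 68.2 and 62.6 CPM in NDD and 61.8, 69 and 56.1 CPM in WT. Slc33a1 measured 46.1 and 48.3 CPM in NDD and 46.8, 45 and 49.3 CPM in WT, and both overlapped. Slc10a2, the ileal bile acid carrier, measured 15.2 and 19.2 CPM in NDD and 13.8, 15.5 and 16.5 CPM in WT. Slc10a5 measured 11.4 and 29.6 CPM in NDD and 13.1, 9.8 and 5.15 CPM in WT, with NDD replicate 1 inside WT. Slc10a3 and Slc10a7, which were assigned to no group, both overlapped.

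Rows just short of the count rule were also read. Of the 117 SLC rows with some counts below it, 48 were tested, none passed the adjusted p in edgeR, and at an unadjusted p under 0.05 there were 6 higher and 3 lower (background 6.49% and 4.68%). DESeq2 called 3 higher (background 1.62%), with adjusted p of 0.00175 for Slc25a29, 0.00226 for Slc16a9 and 0.0123 for Slc24a3, and each of these reached the minimum through NDD alone. In 6 rows the minimum was reached in both NDD libraries but not in all of WT, and in 2 rows the reverse. The rule removes such rows, and no count over the members covers them. Slc15a1, the peptide carrier PEPT1 of the small intestine, had 106 and 231 counts in NDD and 37, 73 and 14 in WT (log2 fold change 2.01 ± 0.69). Slc24a3, a calcium exchanger, had 89 and 55 counts in NDD and 20, 18 and 14 in WT (2.00 ± 0.41). Slc16a9, known as a carnitine efflux carrier, had 171 counts in each NDD library and 58, 40 and 27 in WT (1.98 ± 0.42). These 3 were taken for their fold changes from rows that reached the minimum through NDD, so their direction follows from the choice. Of the other rows reached through NDD, Slc41a2 and Slc8a1 overlapped between the groups. In the opposite direction, Slc23a3 had 47 counts in each NDD library and 65, 101 and 231 in WT (-1.47 ± 0.53). Slc23a4, also reached through WT, had 57 and 33 counts in NDD and 79, 118 and 113 in WT (-1.22 ± 0.34). Because Slc23a3 and Slc23a4 reached the minimum through WT alone, their direction also follows from the choice.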

How the data were processed

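RNA-seq of 5 cultures of mouse colon spheroids was used, 2 NDD and 3 WT, grouped by sample title and genotype label. Estimated counts per gene were deposited by the authors as whole numbers without normalization. A second deposited table held TPM, which the authors had scaled for transcript length and library size. The submitters' processing notes name Bowtie2, RSEM and mm10, with no versions. Every value column matched 1 sample, leaving 0 unmatched. A row with 0 counts allows up to 3 counts (0.129 to 0.155 CPM), which covers counting error only.

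From the counts, edgeR 4.0.16 (R 4.3.3; filterByExpr, TMM, robust quasi-likelihood F test, no covariate, prior count 0.125) was fitted on all genes. P-values were adjusted by Benjamini and Hochberg and called under 0.05. The SE of a log2 fold change is its size over the square root of F. TPM was used to compare levels between genes. DESeq2 1.42.0, limma-voom and limma on log2(TPM + 1) or log2(TPM + 0.1) (limma 3.58.1) were alternatives, with other factors, filters, member minimums of 20 and 200 counts, a replicate block and each library left out. The code was tested on simulated data. Figures used matplotlib 3.10.9.

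The members, the 13 substrate groups and the 10 gene lists were chosen with earlier results of these data known. Named genes are, of members without overlap, the 10 highest and 10 lowest log2 fold changes, the 2 highest mean TPM in each substrate group of at least 3 members, heteromeric amino acid transporter subunits, the 2 members nearest the count minimum on either side, the 2 list genes with the lowest p in each list, and 3 rows that met the minimum in 1 group only. A few genes that this rule names are not reported here. Other genes were named after their values were seen. Of all members, 13 share at least 50% of the 31-base words of the shorter gene with another gene, and 4 overlap a tested gene on the opposite strand by over 20% of exon bases, so their counts are uncertain.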

Additional observations from a re-analysis of the deposited data

How the results depend on the processing

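Direction depended most on NDD replicate 2, without which 109 of 161 members kept theirs, against 146 to 156 without any other 1 library (146 without WT replicate 3). No member was called by edgeR with the settings of the report (12 of 13501 genes in all). With no filter on low counts 2 were called (Slc37a2 and Slc38a6, with 58 of 19182 genes in all). DESeq2 called 10 (357 of 13501 genes) and the replicate block gave 1 (Slc37a2, with 33 of 13501 genes). Leaving out 1 library gave 0 to 18 calls, 44 to 91 members above WT without overlap, 19 to 41 below, and a median log2 fold change of the members from -0.00054 to 0.24. The count of 18, the 91 and the 0.24 came without NDD replicate 1, whereas the lowest median came without NDD replicate 2. Members below WT without overlap, 17 in the report, numbered 39 and 41 without NDD replicates 1 and 2 and 28 without WT replicate 1. Fewer libraries leave more room for groups not to overlap by construction. Over all genes the shares without overlap ran from 17.6% above and 18.7% below without WT replicate 3 to 38% and 38.4% without NDD replicate 1. Why DESeq2 called more members than edgeR was not tested.

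Several reported log2 fold changes changed sign with other settings. No member was called with the settings of the report, so no called change could be followed in this way. Slc16a3 was -0.71 with limma-voom, -0.65 with limma on log2(TPM + 1), with or without a filter, -0.71 on log2(TPM + 0.1), -1.197 with the replicate block, and -2.94 to 1.07 over left-out libraries (-0.22 without WT replicate 3). Slc11a2 was -0.34 with the block and ranged from -1.72 to 1.67 when libraries were left out. Slc2a1 was -0.054 with limma-voom, -0.076 in the limma fits on log2(TPM + 1) and -0.077 on log2(TPM + 0.1), -0.12 with the block and -0.55 to 0.42 with a library left out (-0.06 without WT replicate 1 or 3). Slc7a11 was -0.04999 with the block. Slc30a10 and Slc40a1 kept their sign with the block but fell from 1.32 to 0.13 and from 1.26 to 0.67. Slc20a2 was 0.0068 with upper-quartile factors, 0.0902 with the block and -0.099 to 0.086 over left-out libraries (0.028 without NDD replicate 2). Ranges over left-out libraries were -1.12 to 2.17 for Slc30a10, -0.17 to 1.96 for Slc40a1, -0.16 to 0.36 for Slc37a4, -0.074 to 0.16 for Slc46a1 (-0.018 without WT replicate 1), -0.54 to 0.58 for Slc7a11, -0.34 to 0.68 for Slc1a5, -0.20 to 0.67 for Slc3a2, -0.71 to 0.24 for Slc7a5, -0.62 to 0.16 for Slc29a1, -0.29 to 0.0076 for Slc35a4, -0.000501 to 0.16 for Slc27a4 and -0.015 to 0.039 for Slc33a1. Slc33a1 was also -7.46e-05 without a filter and -0.00119 or -0.00111 with limma on TPM.

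Replicate numbers are shared by the groups, but no label says that they pair the cultures, so the numbers were not taken as pairs. Deviations from the group means correlated at -0.0095 and 0.353 between same-numbered libraries, over 2 pairs. The 2 NDD libraries deviate from their mean by equal and opposite amounts, so these correlations cannot decide whether the cultures were paired. Under the replicate block the median of the members was 0.085 and 146 of 161 kept their direction. In that fit 1 member was called in place of 0, and 33 of all genes in place of 12. With the other choices (RLE or upper-quartile factors, at least 10 counts in every library, limma fits, member minimums of 20 or 200 counts, an adjusted p under 0.10) the count of calls stayed at 0. Depth limits most the members with the fewest counts (57 in the lowest library of Slc29a4), and having 2 NDD libraries limits every estimate.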

Other observations

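Transporters outside the symbol pattern (32 tested of 40 listed) had a median log2 fold change of 0.10 (-0.03 without NDD replicate 1), with 10 above WT without overlap (31.2%, against 15.8% of all genes tested) and 6 below (18.8%, against 16.2%), and summed to 1572 and 1519 CPM in NDD and 1448, 1466 and 1472 CPM in WT. Mfsd2a, the lysophosphatidylcholine importer, measured 6.51 and 3.51 CPM in NDD and 12.8, 12.8 and 16.7 CPM in WT, for a log2 fold change of -1.49 ± 0.32 and adjusted p of 0.265 in edgeR and 0.00221 in DESeq2. Slc35f5 measured 72.4 and 87.1 CPM in NDD and 46, 62.2 and 51.9 CPM in WT. Partner proteins of carriers (17 tested) had a median of 0.26 (-0.06 without NDD replicate 2), with 4 above WT without overlap (23.5%, against 15.8%) and none below (against 16.2%). Among them Cdh17, an intestinal cadherin, measured 575 and 720.04 CPM in NDD and 506, 542 and 476 CPM in WT. In metal handling, Pcbp2, an iron chaperone and RNA-binding protein, measured 371 and 371 CPM in NDD and 453, 528 and 513 CPM in WT. Its NDD libraries were below all WT libraries, and it did not pass the adjusted p in edgeR or DESeq2.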
